A study of Homo sapiens with 2 samples.

Results

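Spliceosome proteins, SR proteins and hnRNPs were described in K562 cells, an established line of human leukaemia cells with the fusion kinase BCR-ABL1. The genes were taken by symbol, as those whose platform symbol begins with SNRP, SF3A, SF3B, PRPF, HNRNP, or LSM or SRSF followed by a digit, and 77 of the 18377 genes on the arrays met this rule. They fell into 5 groups: core snRNP proteins (25 genes, the SNRP and LSM symbols), SF3 (9), PRPF (11), SR proteins (12) and hnRNPs (20). The core snRNP group is set by symbol and also holds LSM proteins of other roles, such as the cytoplasmic LSM1 and LSM14A. The platform annotation held 0 symbols of the older SFRS form. Of the 77, 75 are protein-coding in RefSeq, and SNRPD2P2 and HNRNPA3P1 are transcribed pseudogenes.

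Both cultures received imatinib, an inhibitor of BCR-ABL1, at 2 µM for 6 h. The first was grown with erythropoietin (EPO), the cytokine of red cell formation. The second carries no mention of EPO in its label and is taken as the culture without it, from the growth protocol. Total RNA of each culture was hybridised to 1 Affymetrix Gene 1.0 ST array, so each group holds 1 array of 1 cell line, with no replicates. No difference below has a replicate check, a test or a p-value.

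The values are deviations on a log scale, read as log2, from a baseline that the authors set for each probe, and this baseline was not analysed here. They say how an array lay relative to that baseline and not how abundant a transcript was, so members cannot be ranked by level. The difference, with EPO minus without EPO, cancels the baseline. In bulk RNA, fewer cells with a transcript and less of it per cell cannot be told apart. A gene was called higher or lower at a difference of at least 2-fold, which is 1 on the log2 scale. Over all genes the median difference was -0.047. Among 278 other genes of cellular machinery (proteasome, mitochondrial ribosome, respiratory chain, nucleoporins, RNA polymerase II and translation initiation factors) it was 0.50. Among 482 genes of families taken by symbol to be silent, such as olfactory receptors, it was -0.33, with a range from -2.17 to 1.36. Their silence in these cells was assumed and not measured. Which of these sets of genes stood still between the cultures is unknown, and a subtraction of any of their medians moves every difference below. The arrays give no levels against which the K562 markers could be checked. Of 7 measured K562 markers, 6 had differences above 0, with TFRC at 1.02, TAL1 at 0.81, ABL1 at 0.65 and the rest from -0.040 to 0.25. Of 11 measured markers of other cell types, 2 differed by more than 2-fold, LYZ at 1.05 and EPCAM at 1.25, and the rest ran from -0.67 to 0.29. The part of these markers in the results was not tested.

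Introns are removed by the spliceosome, a machine built from small nuclear ribonucleoproteins (snRNPs). Each snRNP joins a small nuclear RNA to a ring of Sm or LSM proteins and to proteins of its own. The U1 snRNP marks the 5′ splice site, the U2 snRNP with SF3a and SF3b marks the branch point, and PRPF proteins form much of the U4/U6.U5 tri-snRNP that becomes the catalytic centre. SR proteins bind exons and mostly favour their inclusion, and hnRNPs coat nascent RNA and often oppose it. SF3B1 and SRSF2 are recurrently mutated in myeloid neoplasms.

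Of the 77 members, 5 (6.49%) stood 2-fold or more above their value without EPO, and 0 stood 2-fold or more below it. Of all genes, 6.19% did the former and 0.898% the latter, so the count of higher members lay close to the background. Among the other machinery genes 14.4% were higher and 0.719% lower. At 1.5-fold, 26 members were higher and 6 lower (33.8% and 7.79%, against 18.1% and 4.65% of all genes). Among the other machinery genes a difference of 0.586, about 1.5-fold, stood at percentile 59. A larger share of them than of the members was thus 1.5-fold higher. Their percentile 2 was -0.51, so a smaller share of them was 1.5-fold lower. At 3-fold 0 members were higher and 0 lower (0.365% and 0.37% of all genes). The members' median was 0.40, against -0.047 over all genes and 0.50 among the other machinery genes. Of the 77, 52 lay above 0 (67.5%, against 45.4% of all genes and 82% of the other machinery genes). The 25th to 75th percentiles of the members ran from -0.065 to 0.71, and the whole set ran from -0.96 to 1.32. The groups differed in their median. SF3, PRPF and hnRNP genes had medians of 0.59, 0.58 and 0.52, core snRNP genes 0.19 and SR proteins -0.057. By the mean the order changed, with hnRNP at 0.39, core snRNP at 0.34, PRPF at 0.32, SF3 at 0.30 and SR at -0.053. Only the SR group was the lowest by both. With the machinery median subtracted the median of the members was -0.10 and that of the core snRNP group -0.31. With the silent median subtracted the SR median was 0.28.

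**Figure D1:**
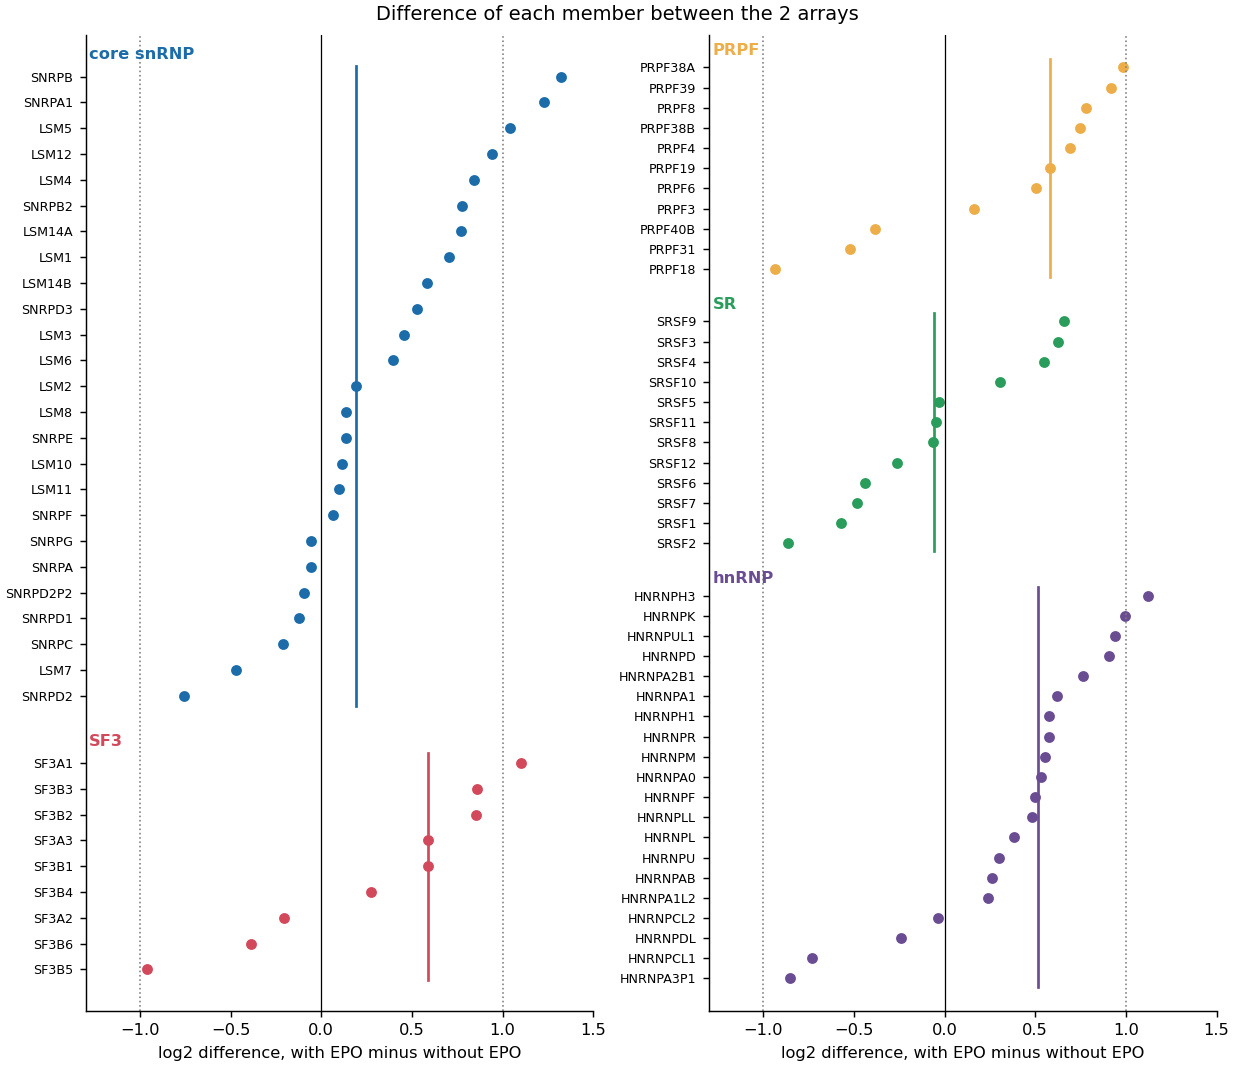
Each point is 1 gene, placed at its log2 difference between the array with EPO and the array without EPO (x axis), sorted within its group; coloured vertical lines mark group medians and dotted lines mark 2-fold. Points past the right dotted line are SNRPB, SNRPA1, LSM5, SF3A1 and HNRNPH3, and 8 of the 12 SR proteins lie left of 0.

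In most members the array without EPO carried the larger part of the difference. On the array with EPO the members lay between -0.33 and 0.40 of the baseline, with a standard deviation over genes of 0.12. On the array without EPO they lay between -1.09 and 0.89, with a standard deviation of 0.47. Over all genes the standard deviations were similar, 0.13 with EPO and 0.43 without EPO, so this contrast is not particular to the members. The array without EPO was the farther from the baseline in 72 of 77 members (93.5%, against 82.6% of all genes and 87.1% of the other machinery genes). In 69 of 77 the arrays lay on opposite sides of the baseline (89.6%, against 83.2% and 91.7%). The unknown baseline may itself contain these arrays, so a value on one array is no independent record of that culture.

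**Figure D2:**
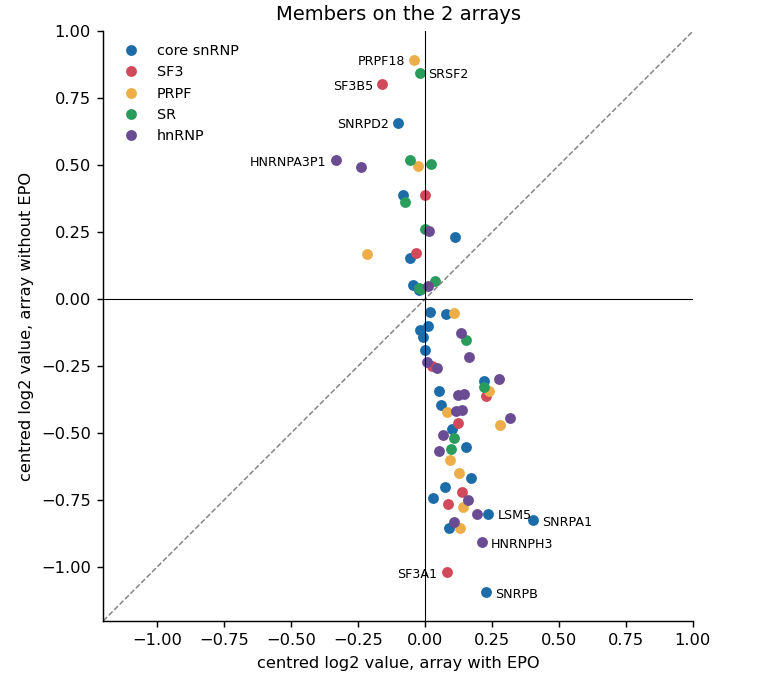
Each point is 1 gene, with its centred log2 value on the array with EPO (x axis) and on the array without EPO (y axis), coloured by group; the dashed line marks equal values. The points form a steep band: the x values stay between -0.33 and 0.40 while the y values run from -1.09 to 0.89.

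The promoters of 4 genes are printed because they hold the highest and lowest members of the Sm ring (SNRPB, SNRPD2) and of the SF3 group (SF3A1, SF3B5). Each window is the 250 bases before the start of the gene from RefSeq (GRCh38.p14), 5′ to 3′ on the gene's strand, and capitals mark a match to any of 7 motifs. The windows lie at chr20:2470790-2471039 (minus strand) for SNRPB, chr19:45692317-45692566 (minus strand) for SNRPD2, chr22:30356895-30357144 (minus strand) for SF3A1 and chr6:144095574-144095823 (minus strand) for SF3B5.
SNRPB: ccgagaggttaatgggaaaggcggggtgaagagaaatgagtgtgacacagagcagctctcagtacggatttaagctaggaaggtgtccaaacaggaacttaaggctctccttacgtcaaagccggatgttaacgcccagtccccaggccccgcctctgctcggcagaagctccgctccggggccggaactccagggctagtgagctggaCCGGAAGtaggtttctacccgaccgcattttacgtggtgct
SNRPD2: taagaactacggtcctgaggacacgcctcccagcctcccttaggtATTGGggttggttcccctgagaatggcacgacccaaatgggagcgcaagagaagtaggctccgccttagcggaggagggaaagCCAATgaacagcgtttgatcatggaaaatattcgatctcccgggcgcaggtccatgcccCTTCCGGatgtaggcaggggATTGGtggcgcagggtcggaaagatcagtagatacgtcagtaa
SF3A1: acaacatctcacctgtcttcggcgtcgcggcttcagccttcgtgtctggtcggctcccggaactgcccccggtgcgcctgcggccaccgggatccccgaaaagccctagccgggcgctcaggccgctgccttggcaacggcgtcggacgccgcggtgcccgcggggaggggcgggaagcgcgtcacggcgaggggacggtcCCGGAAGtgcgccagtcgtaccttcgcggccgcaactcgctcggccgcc
SF3B5: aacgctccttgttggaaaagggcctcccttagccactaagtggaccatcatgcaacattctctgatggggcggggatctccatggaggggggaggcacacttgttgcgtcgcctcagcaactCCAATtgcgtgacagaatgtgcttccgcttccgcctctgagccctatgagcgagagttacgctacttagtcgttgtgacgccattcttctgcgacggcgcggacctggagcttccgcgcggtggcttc

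In the windows above, the ETS motif CCGGAAG stands 41 bases before the start in SNRPB, 49 in SF3A1 and 63 in SNRPD2, the last of these on the opposite strand. SF3B5 holds a CCAAT box 128 bases before its start, and SNRPD2 holds 3 of them. The ETS motif thus occurs in the highest and in the lowest Sm gene alike. RefSeq promoters were found for 66 of the 77 members and for 14208 genes on the arrays, and each motif was searched on both strands, where TTCNNNGAA and CCGGAAG can overlap. CCGGAAG was present in 21 of 66 members (31.8%), in 27.4% of 237 machinery promoters and in 12.1% of all promoters. CCAAT was present in 29 of 66 (43.9%, against 34.5% of all promoters), the MYC box CACGTG in 5 (7.58% against 7.86%) and TATAAA in 5 (7.58% against 8.55%). The shares of the machinery promoters were 35.9%, 11.8% and 5.91% in that order. The STAT motif TTCNNNGAA, the form bound by STAT5 downstream of the EPO receptor, was present in 3 of 66 members (4.55%). It was found in 6.13% of all promoters and in 8.44% of machinery promoters. The 3 members were HNRNPR, LSM10 and PRPF19, with log2 differences of 0.57, 0.11 and 0.58. The NRF1 motif was found in 1 member promoter (1.52%, against 1.54% of all promoters and 2.53% of machinery promoters). A long form of the YY1 motif was found in 0 of 66 (0.303% of all promoters and 0.422% of machinery promoters). The median log2 difference was 0.48 in the 21 members with CCGGAAG and 0.38 in the 45 without it, while 14 of the 21 and 31 of the 45 lay above 0. It was 0.48 in the 29 members with CCAAT and 0.30 in the 37 without it. For CACGTG it was 0.59 in 5 members and 0.30 in the other 61, and for TATAAA 0.26 in 5 and 0.46 in the other 61. The motifs were chosen after the differences were known, and a match is a description of these letters only.

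The Sm ring, which is loaded onto the U1, U2, U4 and U5 RNAs, spread over most of the range of the set. SNRPB, which encodes SmB and SmB′, had centred log2 values of 0.23 with EPO and -1.09 without EPO. Its difference of 1.32 (2.5-fold higher with EPO) was the highest of the 77 and stood at percentile 98.3 of all genes. SNRPD3 stood at 0.22 with EPO and -0.31 without EPO, a difference of 0.53. SNRPD2, of the same ring, lay on the other side of 0, with -0.10 with EPO and 0.66 without EPO. Its difference of -0.76 was short of 2-fold but at percentile 1.94 of all genes. The other Sm genes stayed near 0, with differences of 0.13 for SNRPE, 0.065 for SNRPF, -0.056 for SNRPG and -0.12 for SNRPD1. The 2 probes of SNRPE disagreed in sign, at -0.12 and 0.39, so its mean has no settled direction. The median of the 7 Sm genes was 0.065, and their range was 2.08 wide.

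Of the SNRP genes for proteins particular to one snRNP, 2 belong to U2 and 2 to U1. SNRPA1, a U2 protein, had the highest value of any member on the array with EPO, 0.40, and stood at -0.83 on the array without EPO. Its difference was 1.23 (2.34-fold higher). SNRPB2, its binding partner in U2, stood at 0.075 and -0.70, a difference of 0.78. The U1 proteins SNRPA and SNRPC stood at differences of -0.058 and -0.21. From a further list of spliceosome genes, SNRNP70, which encodes the third U1 protein, had a difference of -0.63. Other genes of the same snRNPs went both ways. The SF3 genes, whose proteins work in U2, ran from -0.96 to 1.10, and PRPF39, a protein associated with U1, stood at 0.92. The values of the pairs therefore do not extend to U2 and U1 as wholes.

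The LSM2 to LSM8 ring binds the 3′ end of U6 RNA. Of its 7 genes, 6 lay above 0 (85.7%, against 45.4% of all genes and 82% of the other machinery genes), with a median of 0.40. LSM5 stood at 0.24 with EPO and -0.80 without EPO, and its difference of 1.04 (2.05-fold) was just past the 2-fold line. LSM4 followed at 0.84, LSM3 at 0.46, LSM6 at 0.40, LSM2 at 0.19 and LSM8 at 0.13. LSM7 was the exception, with -0.08 with EPO, 0.39 without EPO and a difference of -0.47. LSM1 takes the place of LSM8 in the cytoplasmic ring that promotes mRNA decapping, and it stood at a difference of 0.71. LSM10 and LSM11, which replace Sm proteins in the U7 snRNP of histone mRNA processing, were close to each other at 0.11 and 0.095. LSM14A, a protein of cytoplasmic P bodies, stood at 0.77 and LSM12 at 0.94. The 3 probes of LSM14B ran from -0.11 to 1.29, so its mean of 0.58 depended on the probe. Within the core snRNP group, the 13 LSM genes had a median of 0.46 and the 11 Sm, U1 and U2 genes 0.065.

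In the SF3 group the highest gene belonged to SF3a and the lowest to SF3b. SF3A1, the largest subunit of SF3a, had centred values of 0.081 with EPO and -1.02 without EPO. Its difference was 1.10 (2.14-fold higher). It was the 1 call among the 9 genes (11.1%, against 6.19% of all genes and 14.4% of the other machinery genes). SF3A3 stood at 0.59 and SF3A2 at -0.21. Among the SF3b genes, the large subunits SF3B3 and SF3B2 stood at 0.86 and 0.85. SF3B1, which holds the branch point, had values of 0.12 with EPO and -0.46 without EPO, a difference of 0.59. SF3B4 stood at 0.27. The small subunits SF3B6 and SF3B5 lay below 0, at -0.39 and -0.96. PHF5A, another small SF3b subunit, whose symbol is outside the rule, stood at 0.32 with EPO and -0.49 without EPO, and its difference of 0.81 was close to those of the large subunits SF3B2 and SF3B3. SF3B5 was the lowest of all 77 members, with -0.16 with EPO and 0.80 without EPO, 1.95-fold lower and at percentile 0.985 of all genes. The 6 SF3b members thus ran over 1.82 on the log2 scale although their proteins work in 1 complex.

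**Figure D3:**
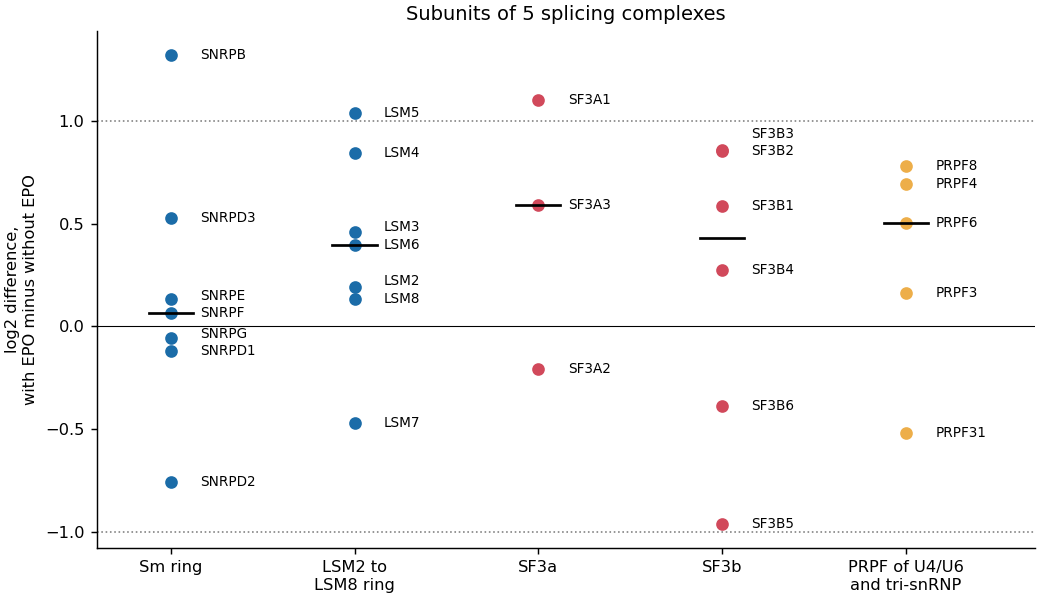
Each point is 1 subunit gene, placed at its log2 difference between the arrays (y axis) in 5 splicing complexes (x axis); black bars mark the median of a complex and dotted lines mark 2-fold. Every complex holds at least 1 gene below 0 and 1 above it, and the Sm ring reaches from -0.76 for SNRPD2 to 1.32 for SNRPB.

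PRPF genes had 8 of 11 differences above 0 (72.7%, against 45.4% of all genes and 82% of the other machinery genes). Past 2-fold there were 0, against 6.19% of all genes higher and 0.898% lower. PRPF38A, which joins the spliceosome as it is activated, stood at 0.13 with EPO and -0.85 without EPO. Its difference of 0.98 fell just short of the 2-fold line, and its relative PRPF38B stood at 0.75. PRPF39 stood at 0.14 with EPO and -0.78 without EPO. PRPF8, the scaffold of the catalytic centre, had values of 0.13 with EPO and -0.65 without EPO, a difference of 0.78. In the tri-snRNP, PRPF4 stood at 0.69, PRPF6 at 0.50 and PRPF3 at 0.16. PRPF31, which also belongs to the U4/U6 snRNP and is mutated in a form of retinitis pigmentosa, lay on the other side of 0, at -0.025 with EPO and 0.50 without EPO, a difference of -0.52. PRPF19, the ubiquitin ligase of the activated spliceosome, stood at 0.58. PRPF40B stood at -0.38. PRPF18, a factor of the second catalytic step, was the lowest PRPF gene, with -0.041 with EPO, 0.89 without EPO and a difference of -0.94, at percentile 1.05 of all genes.

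SR proteins had the lowest centre of the 5 groups, with a median of -0.057, close to the -0.047 of all genes. Of the 12, 8 lay below 0 and 4 above it (33.3%, against 45.4% of all genes and 82% of the other machinery genes). Past 2-fold there were 0 in either direction, against 6.19% of all genes higher and 0.898% lower. SRSF2 (SC35), a marker of nuclear speckles, stood at -0.02 with EPO and 0.84 without EPO. Its difference of -0.86 (1.82-fold lower) lay at percentile 1.37 of all genes. SRSF1, the founding SR protein, stood at -0.055 with EPO and 0.52 without EPO, a difference of -0.57. SRSF7 and SRSF6 followed at -0.48 and -0.44, and SRSF12 at -0.26. In all 5 of these genes the array without EPO lay above the baseline. Given the wider spread of that array over all genes, this mostly restates their differences below 0. SRSF8, SRSF11 and SRSF5 lay within 0.1 of 0. The 4 SR proteins above 0 were SRSF9 at 0.66, SRSF3 at 0.63, SRSF4 at 0.55 and SRSF10 at 0.30. SRSF3, the smallest of the family, had values of 0.11 with EPO and -0.52 without EPO, the reverse order of SRSF1 and SRSF2. The probes of SRSF10, a general repressor once dephosphorylated, stood at 0.22 and 0.39.

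The hnRNPs lay mostly above 0, in 16 of 20 genes (80%, against 45.4% of all genes and 82% of the other machinery genes). Of the 4 below 0, 3 are copies: the pseudogene HNRNPA3P1 at -0.85 and the HNRNPC-like genes HNRNPCL1 and HNRNPCL2 at -0.73 and -0.037. The fourth was HNRNPDL, at -0.24. HNRNPH3 was the 1 call (5%, against 6.19% of all genes), with 0.21 with EPO, -0.91 without EPO and a difference of 1.12 (2.17-fold higher). HNRNPK, which binds C-rich RNA and DNA, stood at 0.19 and -0.80, and its difference of 1.00 (1.99-fold) was the nearest to 2-fold from below. HNRNPUL1 stood at 0.94 and HNRNPD (AUF1), which binds AU-rich elements of unstable mRNAs, at 0.91. The abundant core proteins of hnRNP particles had differences of 0.76 for HNRNPA2B1 (0.32 with EPO, -0.44 without EPO) and 0.62 for HNRNPA1 (0.053 and -0.57). A further 4 probes that HNRNPA1 shares with its copies entered no gene and had lower differences, from -0.15 to 0.24. HNRNPC had no probe of its own.

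The G-run binding proteins HNRNPH1 and HNRNPF stood at 0.57 and 0.50. HNRNPR, HNRNPM, HNRNPA0 and HNRNPLL, the last a regulator of CD45 splicing, lay between 0.48 and 0.57. HNRNPL stood at 0.38, HNRNPU, a nuclear matrix protein, at 0.30 and HNRNPAB at 0.26. HNRNPA1L2, an HNRNPA1-like gene, stood at 0.24. Without the copies, 15 of 16 hnRNPs lay above 0 (93.8%, against 45.4% of all genes and 82% of the other machinery genes), with a median of 0.56. The standard deviation over genes was 0.52 over all 20 hnRNPs and 0.33 without the copies, which include the lowest hnRNPs. It was 0.64 in the Sm ring, 0.50 among SR proteins, 0.68 in SF3 and 0.53 over all genes. With the machinery median subtracted, the hnRNP median of all 20 genes was 0.016, close to the centre of the other machinery genes.

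**Figure D4:**
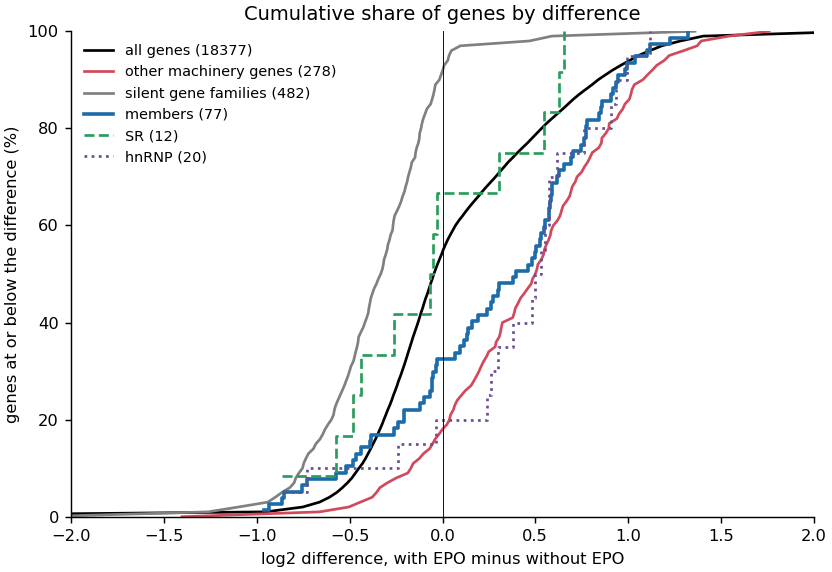
Lines give the share of genes (y axis, percent) at or below a log2 difference (x axis) for all genes, other machinery genes, silent families, the members, SR proteins and hnRNPs, with the number of genes in brackets. The hnRNP line crosses its midpoint near the machinery line, at 0.52 against 0.50, while the SR line crosses near that of all genes, at -0.057 against -0.047.

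The scaling between the arrays changed which members were past 2-fold. With the median of all genes subtracted, 7 members were past 2-fold upwards and 0 downwards (9.09%, against 7.17% and 0.849% of all genes). With the machinery median subtracted, 0 members were past 2-fold upwards and 8 downwards: SF3B5, PRPF18, SRSF2, SRSF1, SNRPD2, PRPF31, HNRNPCL1 and HNRNPA3P1 (10.4% of members). The share of all genes was then 0.604% higher and 7.55% lower. With the silent median subtracted, 21 members were higher and 0 lower (27.3% and 0%), against 15.3% and 0.55% of all genes. Each subtraction shifts every difference by 1 constant. The order of the members, and the span of 2.28 from SF3B5 to SNRPB, are therefore unchanged by construction. A scaling that is not constant over genes could change the order and was not tried.

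The members of shortest genomic span had the lowest median difference. Beyond them the median of the members did not rise with span, while that of all protein-coding genes in the same span classes did. The span from the start to the end of a gene in RefSeq (GRCh38.p14) had a median of 16 kb over the 75 protein-coding members. Across these genes the Spearman correlation of span and log2 difference was 0.33, against 0.18 across all 16862 protein-coding genes, which share the same 2 arrays and are not independent replicates. Among the 11 PRPF genes it was -0.17, and in the other groups it ran from 0.23 (24 core snRNP genes) to 0.75 (9 SF3 genes). In the 19 shortest members (0.69 to 8.74 kb) 12 of 19 lay below 0, with a median of -0.065. All protein-coding genes of that span had a median of -0.17, and 69.6% lay below 0. The 19 shortest members include the copies HNRNPCL1 (-0.73) and HNRNPCL2 (-0.037) and SRSF8 (-0.065), also classed here as a copy. In the next 19 (9.15 to 16 kb) the median was 0.63, the highest of the 4 span classes, against -0.037 for all genes of that span. Of these 19, 4 lay below 0 (53% of all genes of that span). In the 18 that followed (up to 22.3 kb) the median was 0.42, against 0.055 for all genes of that span. Of these 18, 5 lay below 0 (46.6% of all genes of that span). In the 19 longest (23.6 to 69 kb) 2 of 19 lay below 0, with a median of 0.57, against 0.15 for all genes of that span, of which 41.3% lay below 0. SF3B5, the lowest member, spans 0.69 kb, SRSF2 3.3 kb and SNRPD2 4.86 kb. SNRPB, the highest, spans 9.15 kb, and PRPF18, with the longest span of 69 kb, was the second lowest.

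**Figure D5:**
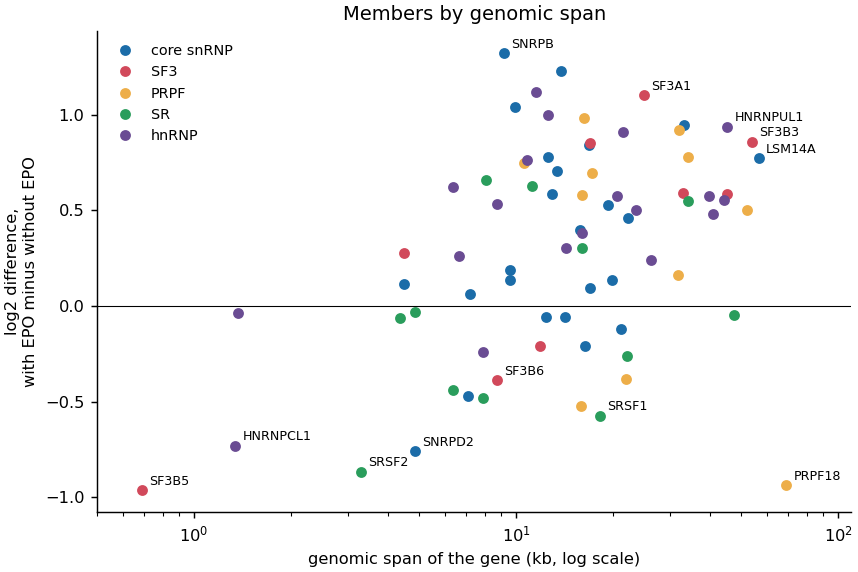
Each point is 1 protein-coding member, placed by the genomic span of its gene in kb (x axis, log scale) and its log2 difference between the arrays (y axis), coloured by group. The shortest genes at the lower left include SF3B5 (-0.96) and SRSF2 (-0.86), and PRPF18 (-0.94) stands alone at the lower right.

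Other splicing genes were taken from 5 lists outside the symbol rule. Of 63 measured proteins of the spliceosome, 8 were past 2-fold upwards and 1 downwards (12.7% and 1.59%), with a median of 0.42. The shares were 6.19% and 0.898% of all genes and 14.4% and 0.719% of the other machinery genes. The highest were SMU1 at 1.79 and PLRG1, a partner of PRPF19, at 1.75. The lowest were RNPC3, a protein of the minor U11/U12 snRNP, at -1.19 and SNRNP70 at -0.63. SNRNP200, the helicase that unwinds U4 from U6, stood at 0.62, and U2AF2 and U2AF1, the large and small subunits that read the 3′ splice site, stood at 0.47 and -0.025. The 26 genes of snRNP assembly and Cajal bodies had 2 higher (7.69%), 0 lower and a median of 0.51. STRAP, a partner of the SMN complex, stood at 1.37 and the snRNA export adaptor PHAX at 1.23, and the lowest were WRAP53 at -0.28 and GEMIN6 at -0.098.

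The 24 genes of the exon junction complex, mRNA export and nonsense-mediated decay had 1 higher (4.17%) and 0 lower, with a median of 0.32. ALYREF, the export adaptor, stood at 1.06 and THOC5 at 0.96, and the lowest were DDX39A at -0.39 and PNN at -0.34. The 25 SR protein kinases and partners had 4 higher (16%, against 6.19% of all genes and 14.4% of the other machinery genes) and 0 lower, with a median of 0.18. SREK1IP1 stood at 1.62 and the phosphatase subunit PPP1CC at 1.36, and the lowest were PNISR at -0.68 and TRA2A at -0.58. Among kinases that phosphorylate SR proteins, SRPK1 and SRPK2 stood at 0.16 and 0.21 and SRPK3 at -0.40. CLK1, CLK3 and CLK4 stood at 0.18, 0.12 and 0.25 and CLK2 at -0.11. No SRPK or CLK gene was among the 4 higher genes of this list. The 54 other splicing regulators had 5 higher (9.26%) and 0 lower, with a median of 0.22. ELAVL1 (HuR) stood at 1.37 and KHDRBS1 (Sam68) at 1.04, and the lowest were PCBP3 at -0.57 and PTBP2 at -0.55. Median differences were thus above 0 in all 5 lists as deposited, and with the machinery median subtracted 4 of them were below 0, the exception being snRNP assembly at 0.011.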

How the data were processed

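The deposited table holds centred log2 values of 28869 probes on 2 whole-transcript arrays, with the base read as 2 and not stated. How the background was corrected, probes summarised and arrays normalized is not stated in the labels. The authors' centring shows in the values: 631 probes (2.19%) had values on the 2 arrays that summed to 0 within 1e-05. The column medians were -0.0089 and 0.052. Of the probes, 19310 carried 1 gene symbol in the platform annotation, 1752 several and 7807 none. RefSeq held the Entrez ID of 19279 of the 19310 (GRCh38.p14). The mean over its probes gave the value of each of 18377 genes, and 85 probes gave the 77 members, 6 of them with several probes. No filter on low values was possible.

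Differences were with EPO minus without EPO, called at 2-fold, with no test, since each group has 1 array. That number limits the precision. Alternatives were thresholds of 1.5-fold and 3-fold, 3 scalings, other probe rules, other membership and the mean. Members, lists, machinery and silent classes were chosen with earlier results of these data known. Named genes were the 4 highest and 4 lowest of each group, all calls, and a fixed set by role; in each list the 2 highest and 2 lowest. Genes named beyond this were chosen after their values were seen. Calculations used Python 3.11.15, NumPy 2.4.6, pandas 2.3.3 and matplotlib 3.10.9, and the averaging and calling were tested on simulated data.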

Additional observations from a re-analysis of the deposited data

How the results depend on the processing

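No paired analysis was possible because each group has 1 array. With 1 array per group and centred values, signal over background is unknown. At 1.5-fold, 26 members were higher and 6 lower (18.1% and 4.65% of all genes), and at 3-fold 0 were higher (0.365%). Among the other machinery genes a difference of 0.586, about 1.5-fold, stood at percentile 59. With the median of all genes subtracted, 7 members were past 2-fold higher (9.09%, against 7.17% of all genes) and the SR median was -0.011. With the machinery median subtracted, 0 members were higher and 8 lower. The medians were then -0.10 for the members, -0.31 for core snRNP, 0.087 for SF3, 0.081 for PRPF, -0.56 for SR and 0.016 for hnRNP. With the silent median subtracted, 21 members were higher, and the medians were 0.73, 0.52, 0.92, 0.91, 0.28 and 0.85 in that order. The core snRNP median was 0.39 with the probe of largest difference and 0.13 with the probe of smallest difference. It was 0.29 without the pseudogene SNRPD2P2 and 0.34 as a mean. The means of SF3 and PRPF were 0.30 and 0.32. Matching current symbols or counting SFRS symbols changed no member. Of 49 named members, 5 changed sign with the machinery median subtracted, 5 lost a call and 8 gained one, and 1 changed sign with the probe of smallest difference. The scalings of all genes and of the further lists were added after the data were seen. All genes numbered 111 higher and 1387 lower with the machinery median subtracted, and 2812 and 101 with the silent median. The list medians were -0.082 (spliceosome), 0.011 (assembly), -0.18 (exon junction), -0.32 (SR kinases) and -0.28 (other regulators) with the machinery median subtracted, and 0.75, 0.84, 0.66, 0.52 and 0.55 with the silent median. The scalings shift every difference by 1 constant by construction.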

Other observations

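A further 20 probes carried a matching symbol among several and entered no gene. The probe shared by HNRNPC and HNRNPCL1 stood at 0.14 with EPO and -1.26 without EPO, a log2 difference of 1.40, above every member. A probe that HNRNPC shares with 3 HNRNPC-like genes differed by 1.03. The probes shared by HNRNPUL2 and a readthrough transcript and by HNRNPH2 and another gene differed by 0.94 and 0.59, and a probe that the readthrough transcript shares with another gene by 0.86. The 4 probes shared by HNRNPA1 and its copies differed by 0.24, 0.12, 0.0066 and -0.15, against 0.62 for HNRNPA1 alone. The 3 probes shared by HNRNPA3 and HNRNPA3P1 differed by 0.015 to 0.13, while the probe of HNRNPA3P1 alone differed by -0.85. The 8 probes shared by SNRPN, which encodes the SmN protein, and other genes ran from -0.57 to -0.035. None of these values can be assigned to one gene.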
